A study of Mus musculus with 6 samples.

Results

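Accessible chromatin around Pnpla2 and Lpin1, a lipase gene and a lipin gene of lipid droplet metabolism, was examined in mouse liver by DNase I hypersensitivity. The enzyme DNase I cleaves open chromatin more readily than packed chromatin, and a hotspot is a stretch with a local excess of its cuts. The members were chosen by position and from hotspot calls: every stretch on build mm9 that was called in any of the 6 libraries and overlapped chr7:148590000-148680000 (the Pnpla2 window, 90 kb) or chr12:16500000-16700000 (the Lpin1 window, 200 kb). Hotspots sharing at least 1 bp were merged, which gave 15 regions in the Pnpla2 window and 17 in the Lpin1 window, 32 of the 75169 regions in the series. They are called P1 to P15 and L1 to L17, in their order along the chromosome. Of these, 9 (60%) and 8 (47.1%) were called in all 6 libraries and could be compared in level, against 49.3% of all regions. The calls themselves are given as a description with no test.

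The libraries came from livers of C57BL/6 mice, 3 fed ad libitum and 3 without food for 24 h, all killed at 6 in the morning when the lights came on. In both groups nuclei were treated with 40 U/ml DNase I, and released fragments from 100 to 500 bp long were sequenced. The labels number the replicates without saying whether they are different animals. The p-values therefore rest on differences among these samples that could be technical. Whole liver holds several cell types, and a site open in fewer cells cannot be told apart from one that is less open in every cell. No gene positions on mm9 were used here, so the liver label was not checked against marker genes, and it was not determined which regions are promoters or lie inside a gene. In the order of the RefSeq annotation, Pnpla2 stands between Rplp2 and Cracr2b, with Cd151 and Polr2l beyond, and Lpin1 between Trib2 and Ntsr2, so a region of a window need not belong to the gene that names it.

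Each region was given, per library, the maximum tag density of its tallest hotspot, in the units of the deposited lists. Libraries held 49682 to 63476 hotspots. Fasted replicate 2 (relative depth 1.90) and fed replicate 3 (1.64) were sequenced most deeply, taking fed replicate 2 as 1, if the smallest step of the densities is 1 tag. On that reading the maximum densities correspond to heights of 36 to 589 tags in the Pnpla2 window and 23 to 478 in the Lpin1 window. Where a library lists no hotspot, the density there is not known and was not taken as 0.

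Pnpla2 encodes adipose triglyceride lipase, the enzyme that takes the first fatty acid off triacylglycerol at the surface of lipid droplets. In liver this lipolysis supplies fatty acids for oxidation and ligands for the nuclear receptor PPARα. Lpin1 encodes lipin 1, a phosphatidate phosphatase that makes the diacylglycerol used for triacylglycerol synthesis, and which also acts in the nucleus as a coactivator of PPARα together with PGC-1α. Transcription of both genes is known to respond to fasting.

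The 250 bases before the annotated start site of each gene are shown from RefSeq (build GRCm38.p6), since they lie at the point where transcription of the lipase and the lipin starts and differ in base composition. The Pnpla2 stretch is chr7:141454938-141455187 on the + strand and the Lpin1 stretch is chr12:16610967-16611216 on the - strand, positions that cannot be set against the mm9 hotspots. Capitals mark matches, on either strand, to the 6 short motifs searched.
Pnpla2: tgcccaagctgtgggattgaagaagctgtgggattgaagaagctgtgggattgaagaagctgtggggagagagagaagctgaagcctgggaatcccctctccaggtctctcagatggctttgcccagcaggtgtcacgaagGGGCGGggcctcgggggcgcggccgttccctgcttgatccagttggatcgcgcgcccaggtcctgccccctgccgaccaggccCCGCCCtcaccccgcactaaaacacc
Lpin1: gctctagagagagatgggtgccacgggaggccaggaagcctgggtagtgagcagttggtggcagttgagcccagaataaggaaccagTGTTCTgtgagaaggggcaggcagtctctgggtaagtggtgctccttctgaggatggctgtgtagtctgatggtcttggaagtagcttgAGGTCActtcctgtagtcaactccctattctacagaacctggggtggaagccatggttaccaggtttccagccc
The Pnpla2 stretch had 63.2% G or C and 12 CpG dinucleotides, against medians of 52.4% and 6 over 32851 RefSeq promoters. The Lpin1 stretch had 54.8% and 1 CpG. Both matches of Pnpla2 are GC boxes (GGGCGG), 1 on each strand, a motif found in 32.7% of all these promoters. Lpin1 had 1 match to the nuclear receptor core AGGTCA (14.0% of promoters) and 1 to the glucocorticoid receptor core AGAACA, on the reverse strand (16.1%). The E-box CACGTG (6.02% of promoters), the cAMP response element core TGACG (17.8%) and the forkhead core TGTTTAC (3.17%) had no match in either stretch. None of these motifs overlapped another here, and a match is only a match of letters.

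In the Pnpla2 window, density rose after fasting at the neighbours P2 and P3, at P6 and again at P11, and between P3 and P6 lie a pair of regions, P4 and P5, that had calls in fasted livers only. Of the 9 regions called in all libraries, 4 rose (P2, P3, P6 and P11) and 0 fell (limma, Benjamini-Hochberg adjustment over all 37044 regions called in all 6 libraries, threshold 0.05). Over the genome 7.89% of the tested regions rose and 7.84% fell. At an unadjusted p under 0.05, 4 of the 9 were higher and 1 (P15) lower, against 14.6% and 13.1% of all tested regions. A further 3 regions, P4, P5 and P12, were called in every fasted and no fed library, a pattern of 1.17% of all regions, and 0 showed the reverse, a pattern of 1.57%. The windows were proposed with earlier results of these data known, so these counts are not independent evidence of a direction.

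**Figure D1:**
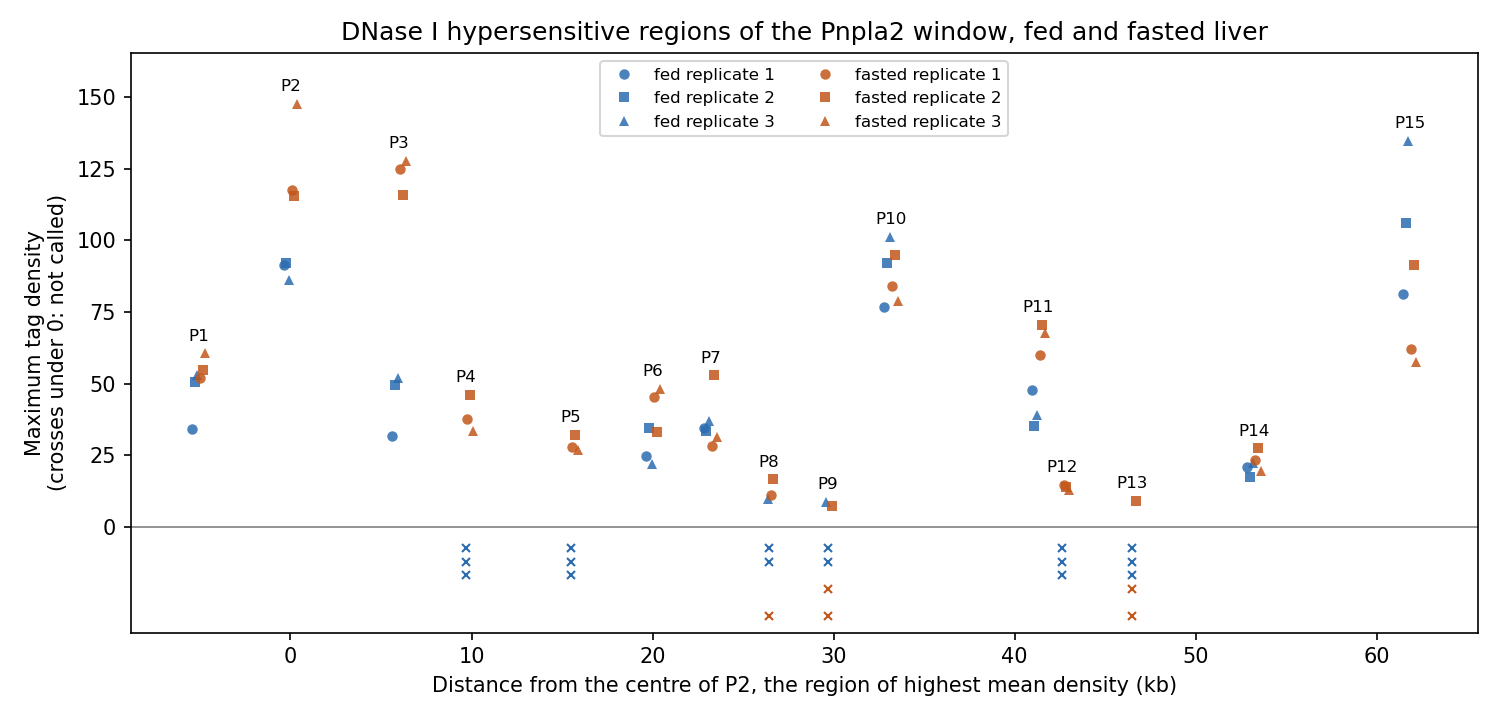
Maximum tag density (vertical axis, units of the deposited lists) of the 15 regions of the Pnpla2 window against distance from the centre of P2 in kb. Each symbol is 1 library, fed in blue and fasted in orange, set slightly apart sideways, and crosses under 0 mark libraries with no call. P3 stands at 31.6 to 52.0 in the fed and 116 to 128 in the fasted libraries, and P4 and P5 have fasted values only.

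P3 (148605611 to 148606738) changed most of the tested regions of the window. Its density stood at 31.6, 49.5 and 52.0 in the fed libraries (replicates 1 to 3, in that order throughout) against 125, 116 and 128 after fasting. The lowest fasted library stood far above the highest fed one, and the fasted libraries lay closer together than the fed ones. The mean went from 44.3 ± 11.1 to 123 ± 6.14 (SD, n = 3 each). The log2 fold change of 1.55 (SE 0.18; limma, adjusted p = 3.3e-06), or 2.94-fold on that scale, ranked 111 among the rises of the 37044 tested regions. In tags, with no scaling for depth, the height of P3 was 86, 132 and 227 in the fed libraries against 441, 588 and 422 after fasting. The relative depths of these libraries, in the same order, were 1.02, 1 and 1.64 against 1.32, 1.90 and 1.24. The hotspot at P3 was also wider, at 677, 816 and 859 bp in the fed libraries against 1011, 1127 and 970 bp after fasting.

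P4 and P5 follow P3 at gaps of 2.60 and 8.13 kb and had no fed call. P4 (148609342 to 148610410) stood at 37.7, 46.2 and 33.3 in the fasted libraries. P5 (148614864 to 148616472) stood at 27.8, 32.2 and 26.9. Among the 879 regions called in every fasted and no fed library, P4 ranked 5 and P5 ranked 17 by mean density, where the median region stood at 8.78. Other members of the windows were called in the fed libraries at densities down to 8.46, 8.99 and 6.18 in replicates 1 to 3. The hotspot caller's limit at P4 and P5 is not known.

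P2 (148599513 to 148600850) had the highest mean density of the window over all 6 libraries, while over the fed libraries alone the mean of P15 was higher and that of P10 about the same. It stood at 91.6, 92.2 and 86.3 in the fed libraries against 117, 116 and 148 after fasting. All fasted libraries were above all fed ones, and fasted replicate 3 was the highest. The log2 fold change was 0.55 (SE 0.13; limma, adjusted p = 0.0049).

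P6 (148617995 to 148622402) is a run of weaker hotspots, 4407 bp wide, wider than 99.7% of regions called in all libraries. Its highest hotspot reached 24.6, 34.5 and 22.0 in the fed libraries against 45.4, 33.0 and 48.1 after fasting. Fed replicate 2 was above fasted replicate 2 as deposited, and the groups separated only on centred values, after subtraction of each library's median. The log2 fold change was 0.70 (SE 0.20; limma, adjusted p = 0.018). The call was lost on the average density (0.28, adjusted p = 0.34), without centring (0.63, adjusted p = 0.050), and when replicate 1 or 3 of either group was left out (adjusted p = 0.065 to 0.092). The average density was taken as the highest over a region's hotspots. In fasted replicate 3 that was not the tallest hotspot of P6 but another, with a maximum of 35.4. Fasted replicate 2 had 1 hotspot of 4343 bp there, with an average density of 9.15. The summed width of the hotspots of P6 was 1781, 2619 and 2823 bp in the fed libraries against 3953, 4343 and 4133 bp after fasting.

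P11 (148640546 to 148642424) lies 18.1 kb beyond P6. It stood at 47.8, 35.2 and 39.1 in the fed libraries against 60.1, 70.5 and 67.8 after fasting, with no overlap. The mean went from 40.7 ± 6.44 to 66.1 ± 5.35 (SD, n = 3 each), and the log2 fold change was 0.77 (SE 0.17; limma, adjusted p = 0.0030). P12 (148642554 to 148643083), 130 bp further on, had no fed call and stood at 14.8, 14.0 and 12.7 in the fasted libraries. P12 joined P11 when hotspots within 150 bp were merged, and was then no longer a region of its own.

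Between and around these regions others did not pass. P10 (148632732 to 148633954), 6.59 kb before P11, was among the strongest, at 76.9, 92.2 and 101 in the fed libraries against 84.3, 94.9 and 78.7 after fasting. The groups overlapped there, with a log2 fold change of 0.01 (SE 0.16). P7, which starts 433 bp after P6, had a log2 fold change of 0.12 (SE 0.22), with densities of 28.1 to 52.9 over the 6 libraries. P1, at 34.2 to 60.5, and P14, at 17.2 to 27.4, had log2 fold changes of 0.37 (SE 0.19) and 0.27 (SE 0.21). P8 was called in fed replicate 3 and fasted replicates 1 and 2, P9 in fed replicate 3 and fasted replicate 2, and P13 in fasted replicate 2 alone, at densities of 7.10 to 16.6 over these calls. All but the P8 call of fasted replicate 1 came from the deepest library of a group.

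P15 (148660671 to 148663324) at the far end had a lower mean after fasting, at 81.3, 106 and 135 in the fed libraries against 62.1, 91.6 and 57.5 after fasting. The groups overlapped, and the log2 fold change of -0.53 (SE 0.21) did not pass (adjusted p = 0.088, limma). It passed with depth as a covariate, without centring, with quantile normalization, and without fasted replicate 2 or fed replicate 1 (log2 fold changes from -0.60 to -0.84, limma adjusted p from 0.00065 to 0.033). On the average density it was -0.21 (adjusted p = 0.51, limma). P15 holds a pair of hotspots in every library but fed replicate 3, which had 1 hotspot across both, and the order of the pair by height differed between those fed libraries and the fasted ones. The first reached 51.5 and 64.8 in fed replicates 1 and 2 and 62.1, 91.6 and 57.5 in the fasted libraries. The second reached 81.3 and 106 in those fed libraries and 42.0, 58.6 and 40.6 in the fasted ones. The second was 1.58 and 1.64 times the first in the fed libraries and 0.676, 0.640 and 0.705 times in the fasted libraries, so the value of P15 comes from a different hotspot in fed replicates 1 and 2 than in the fasted libraries. The split was noticed after the values were seen and was not tested.

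In the Lpin1 window, 1 of the 8 regions called in all libraries rose after fasting (L11) and 0 fell (limma, as above). The genome shares given above, 7.89% and 7.84%, apply here too. At an unadjusted p under 0.05, 1 of the 8 was higher and 0 were lower, a share near the 14.6% of all tested regions that were higher at that threshold. L14 was called in every fasted and no fed library, a pattern of 1.17% of all regions. The reverse was shown by 0 regions, against 1.57% of all. Of the 17 regions, 4 were called in fasted replicate 2 alone, the deepest library. Over all 75169 regions, 14627 were called in a single library, whichever it was.

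**Figure D2:**
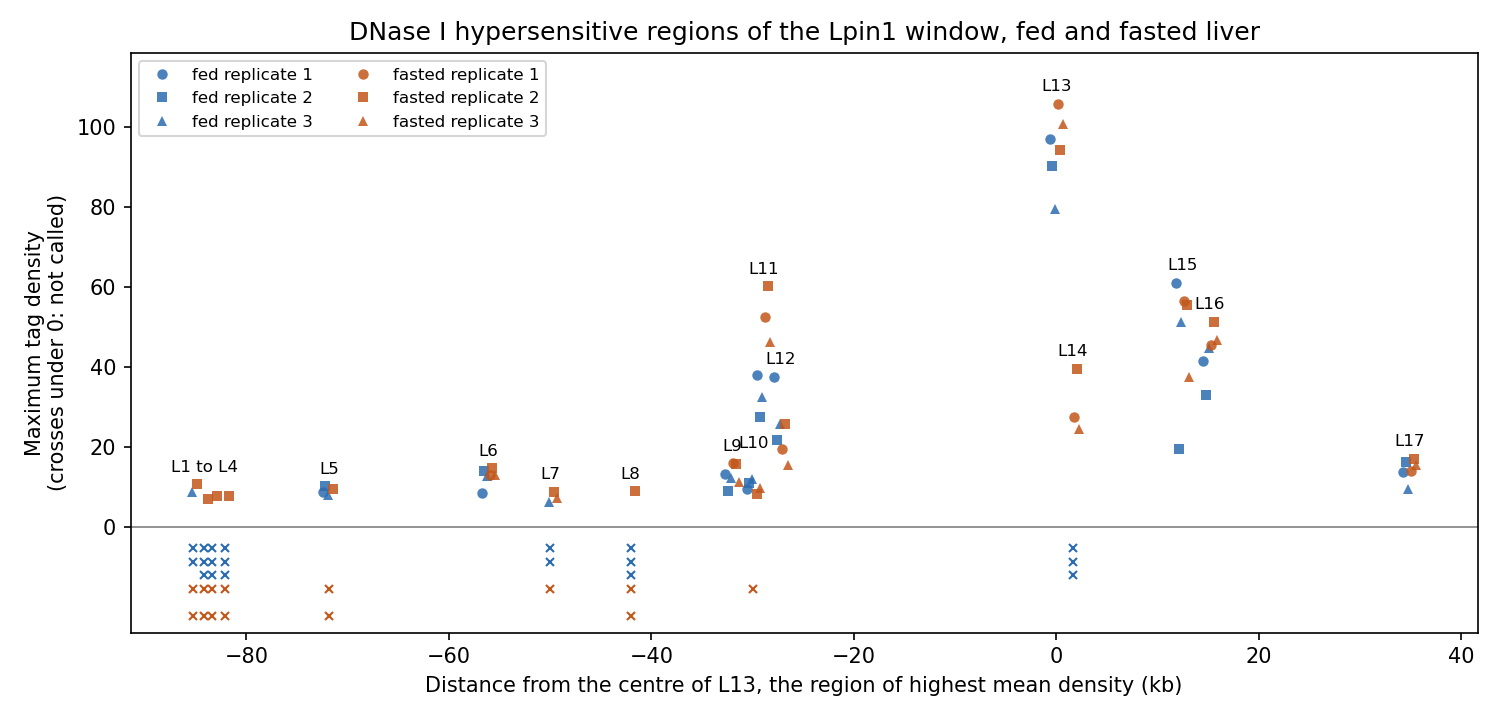
Maximum tag density (vertical axis, units of the deposited lists) of the 17 regions of the Lpin1 window against distance from the centre of L13 in kb. Each symbol is 1 library, fed in blue and fasted in orange, set slightly apart sideways, and crosses under 0 mark libraries with no call. L11 stands at 27.4 to 37.9 in the fed and 46.3 to 60.2 in the fasted libraries, and L14 has fasted values only.

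L11 (16596076 to 16597292) stood at 37.9, 27.4 and 32.5 in the fed libraries against 52.5, 60.2 and 46.3 after fasting. Every fasted library was above every fed one. The mean went from 32.6 ± 5.26 to 53.0 ± 6.95 (SD, n = 3 each), and the log2 fold change was 0.76 (SE 0.19; limma, adjusted p = 0.0072), or 1.70-fold. L12 (16597931 to 16598846) begins 639 bp after L11 and did not pass. It stood at 37.5, 21.7 and 25.6 in the fed libraries against 19.6, 25.7 and 15.4 after fasting. The groups overlapped there, and the log2 fold change was -0.38 (SE 0.24; limma, adjusted p = 0.31).

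L13 (16624865 to 16626318) was the strongest region of the window in every library. It stood at 97.1, 90.3 and 79.4 in the fed libraries against 106, 94.3 and 101 after fasting. The groups overlapped as deposited and separated after centring, and the log2 fold change of 0.25 (SE 0.13) did not pass (adjusted p = 0.25, limma). L14 (16626677 to 16627733) lies 359 bp after L13 and 29.4 kb after L11. It had no fed call and stood at 27.5, 39.5 and 24.5 in the fasted libraries. By mean density L14 ranked 13 among the 879 regions of its kind. A strong region called in all libraries and a region with fasted calls only thus stood side by side.

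The other Lpin1 regions called in all libraries were L6, L9, L15, L16 and L17, with log2 fold changes of 0.30 to 0.38, and 0 of these passed. Their densities over the 6 libraries ran from 8.46 to 14.6 at L6, 8.99 to 15.9 at L9, 33.0 to 51.3 at L16 and 9.38 to 17.0 at L17. L15 (16636738 to 16639374) varied most among the fed libraries, at 61.0, 19.5 and 51.3, against 56.5, 55.5 and 37.5 in the fasted ones. Its log2 fold change of 0.38 (SE 0.29) turned to -0.11 without fed replicate 2. L5 was called in all fed libraries at 8.83, 10.1 and 8.01 and in fasted replicate 2 at 9.47, so without that deepest library it would count as called in fed livers only. L10 was called in all fed libraries and fasted replicates 2 and 3, L7 in fed replicate 3 and fasted replicates 2 and 3, and L1 in fed replicate 3 and fasted replicate 2, at 6.18 to 11.9 over these calls. L2, L3, L4 and L8 were the calls of fasted replicate 2 alone, at 6.91 to 8.88.

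Of the 9 and 8 regions tested in the Pnpla2 and Lpin1 windows, 8 and 7 had a positive log2 fold change. Over all 37044 regions, 20093 did. The medians were 0.37 in the Pnpla2 and 0.33 in the Lpin1 window, against 0.03 over all regions. In 6 of the window regions (P2, P3, P6, P11, L11 and L13) every fasted library was above every fed one on centred density, against 16.8% of all tested regions. In 0 of them every fasted library was below, against 14.6%. Of the 5 regions that rose, P2, P3, P11 and L11 had 1 hotspot in every library, so each of their values came from a single hotspot. With hotspots within 150 bp merged, P11 was joined to P12, and L11 to L9 and L10. The log2 fold change was then 0.76 for the region holding P11 and 0.76 for the region holding L11. Rises were also seen on the average density at P2 (log2 fold change 0.43), P3 (1.46), P11 (0.66) and L11 (0.55).

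**Figure D3:**
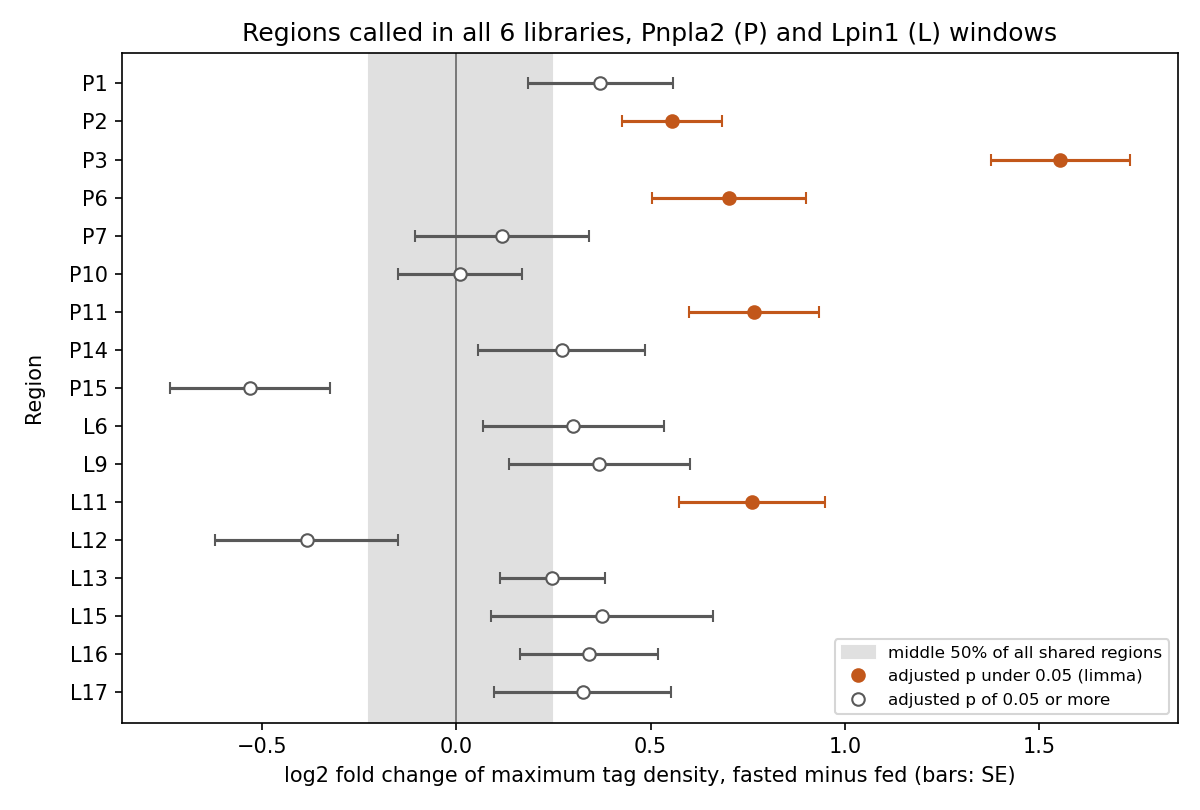
Log2 fold change of maximum tag density, fasted minus fed, with its SE (horizontal axis) for the 17 regions called in all 6 libraries, P for the Pnpla2 and L for the Lpin1 window. Filled symbols passed the limma threshold, and the grey band spans the middle 50% of all 37044 regions, from -0.22 to 0.25. P3 lies furthest right, at 1.55, and P15 and L12 lie left of 0.

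Ratios of regions within a library do not depend on how libraries are scaled, and 5 were computed after the values were seen, so they are given with no test. P3 was 0.411, 0.537 and 0.514 times P10 in the fed libraries and 1.48, 1.22 and 1.62 times in the fasted ones. P11 was 0.622, 0.382 and 0.387 times P10 in the fed libraries against 0.714, 0.742 and 0.862 times after fasting. P15 was 1.06, 1.15 and 1.33 times P10 in the fed libraries against 0.737, 0.965 and 0.731 times after fasting. In the Lpin1 window L11 was 1.01, 1.26 and 1.27 times L12 in the fed libraries against 2.68, 2.35 and 3.00 times after fasting. Against L13 the ratio of L11 was 0.390, 0.303 and 0.409 in the fed libraries against 0.496, 0.638 and 0.459 after fasting. In all 5 ratios the groups did not overlap, but the pairs were picked with these values known, so the separation is not separate evidence. For P15 the ratio takes a different hotspot in fed replicates 1 and 2 than in the fasted libraries. On the average density the log2 difference between groups, fasted minus fed, was smaller in size for all 5 ratios. It was -0.25 for P15 over P10 (-0.55 on the maximum) and 0.21 for L11 over L13 (0.53). For L11 over L12 it was 0.91 (1.18), for P3 over P10 1.49 (1.57) and for P11 over P10 0.67 (0.77).

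**Figure D4:**
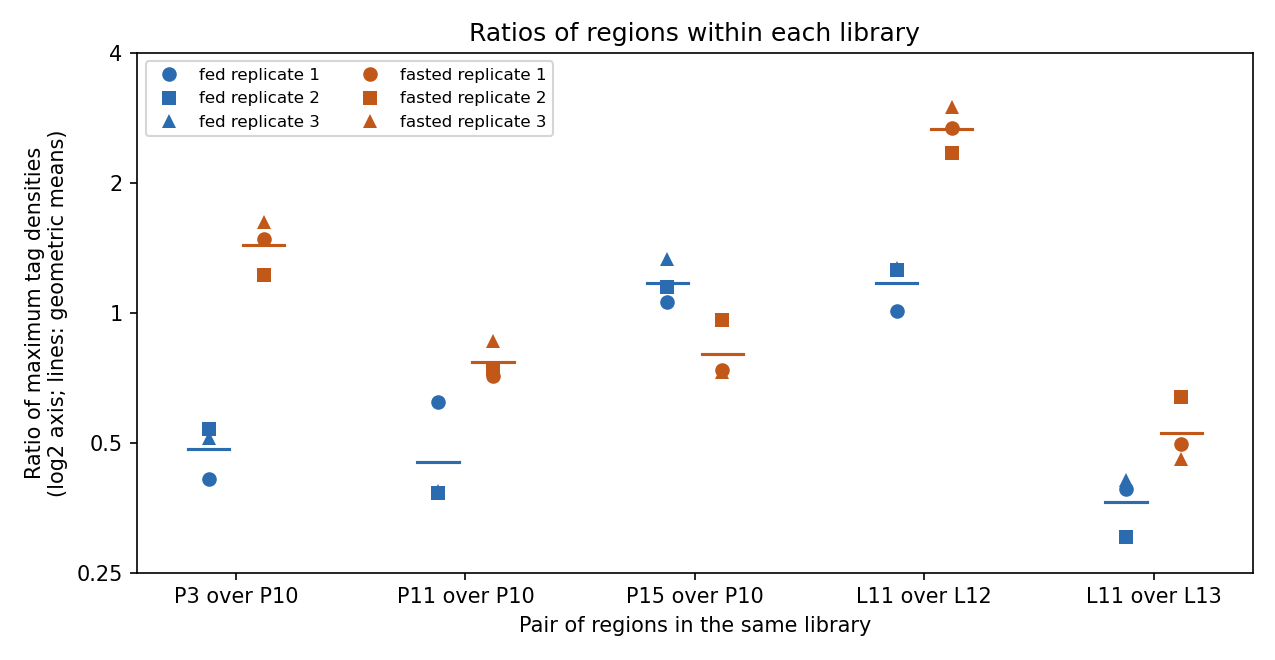
Ratio of maximum tag densities of a pair of regions in the same library (vertical axis, log2 scale), for 5 pairs. Each symbol is 1 library, fed in blue and fasted in orange, and lines are geometric means. L11 over L12 lies at 1.01 to 1.27 in the fed and 2.35 to 3.00 in the fasted libraries.

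Just outside the windows the nearest regions called in all libraries did not pass on either side of Pnpla2. They lie 11.4 kb before the window, with a log2 fold change of 0.11 (SE 0.20), and 23.1 kb after it, with -0.02 (SE 0.16). The next ones out had -0.14 and -0.26. Just inside the edges stand P1, at 0.37, and P15, at -0.53. Around the Lpin1 window such regions are sparse. After it they lie at 40.6 and 148 kb, with -0.20 at each, and before it at 303 and 334 kb, with 0.74 (adjusted p = 0.055, limma) and 0.87 (adjusted p = 0.0067, limma).

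The regions elsewhere whose 6 centred log2 densities were closest to those of P3 lie on chromosome 1 (94925771 to 94927081 and 166456041 to 166457575) and chromosome 17 (33917845 to 33919066), at Euclidean distances of 0.65, 0.67 and 0.71. Their log2 fold changes were 1.41, 1.69 and 1.41. Closest to L11 were regions of chromosome 14 (8931898 to 8932849), chromosome 1 (40212584 to 40213640) and chromosome 2 (109775260 to 109776732), at 0.22, 0.23 and 0.26, with log2 fold changes of 0.80, 0.65 and 0.76. The distances use the same 6 values as the fold changes, so similar fold changes follow from the choice of regions.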

How the data were processed

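The deposited data are a hotspot list per library, so hotspots were called per sample. The submitters' processing notes name CASAVA 1.8 and build mm9, and which aligner and caller were used is not stated in the sources used here. Per the file headers, the maximum and average tag density are a coverage signal of unstated scale. The z-score deposited by the authors, a score per hotspot, and the deposited p-value were used for no comparison. Members and lists were chosen with earlier results of these data known.

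Hotspots of chromosomes 1 to 19 and X sharing at least 1 bp were merged. Each region's highest maximum density was taken as log2(density + 1), centred on the library median over regions called in all 6 libraries, and tested there in R 4.3.3 by the moderated statistics of limma 3.58.1 (trend on, Benjamini-Hochberg adjustment). Fold changes on that scale understate the change of weak regions. Depth came from the density step, of which 100% of maxima were whole multiples (within 0.05 step). Heights in tags differed between replicates of a group with a mean squared z between 2.18 and 5.82. That z takes the heights as counts with Poisson spread, under which its mean square would be near 1. Whether a pair came from the same library was not tested. The fit was first run on simulated data, with an outcome not reported here. Regions given library by library were those with separate groups or a passed test and the strongest of each window. Regions called in all libraries of 1 group and none of the other were also given so. A few others were chosen after their values were seen. Alternatives were pseudocounts of 0.1 and 10, no centring, quantile normalization, average density, the upper 50% of regions, no trend, the replicate number as a block, depth as a covariate, merging within 150 bp, lists of equal length, hotspots covering 50% of a region, and leaving out each replicate. A pathway gene list was planned but not run without mm9 gene positions. Scripts ran under Python 3.11.15 with pandas 2.3.3, numpy 2.4.6 and matplotlib 3.10.9.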

Additional observations from a re-analysis of the deposited data

How the results depend on the processing

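Over 16 alternatives to the limma fit, P2, P3, P11 and L11 passed in the same direction in each. P6 lost its call in 6, as given beside its values. The number of Pnpla2 regions that fell went from 0 to 1 (P15) with depth as a covariate, with no centring and with quantile normalization, and ranged from 0 to 1 on leaving out each replicate. The number of Pnpla2 regions that rose was 3 or 4 throughout, and L11 was the risen Lpin1 region throughout. With hotspots within 150 bp merged, L9, L10 and L11 were 1 region, which passed at 0.76. Of the 188 values of regions that had not passed, 10 changed sign, none of them called. Regions called in every fasted and no fed library numbered 3 in the Pnpla2 window, or 2 with that merging, and 1 in the Lpin1 window. Lpin1 regions called in every fed and no fasted library ranged from 0 to 1 on leaving out each replicate (L5). The ratios within a library kept their sign. No centring moved the median of all regions from 0.03 to -0.04. Fed and fasted libraries that share a number showed no common deviation (r = -0.067, -0.030 and -0.167), and with the replicate block 4 Pnpla2 and 1 Lpin1 regions rose. The windows were not placed on gene models, and weak regions carry the largest counting error.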
